A study of Mus musculus with 16 samples.

Results

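ER-phagy receptors are proteins that mark a stretch of the endoplasmic reticulum (ER) for degradation in the lysosome. The mRNAs of 9 of them were followed here, out of 31053 genes in the table: Fam134a, Fam134b, Fam134c, Rtn3, Sec62, Atl3, Ccpg1, Tex264 and Calcoco1. They were taken by their symbols in the table, each was found once, and all 9 were among the 10767 genes tested. The question put to them was whether the mRNA of any other receptor was higher in cells that had lost Fam134b. The samples came from C2C12, a mouse myoblast line whose cells fuse into multinucleated myotubes in culture. WT cells and Fam134b KO cells were each sampled as myoblasts and as myotubes, which made 4 groups of 4 samples. All cells grew in DMEM with 10% FBS, and myotubes formed spontaneously once the cultures were confluent. Fam134b had been targeted with a lentiviral CRISPR-Cas9 vector carrying a pair of guides, followed by antibiotic selection, and the methods name no single-cell clone. What the WT cells carried in its place is not given in the sources used here, the labels give no day of harvest, and a separate label field lists the genotype of each sample as unknown.

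An ER-phagy receptor sits on the ER or is recruited to it, and carries a short LC3-interacting region (LIR) that binds the Atg8 family of ubiquitin-like proteins on the growing autophagosome. Fam134a, Fam134b, Fam134c and Rtn3 hold a reticulon homology domain that bends ER membranes, Atl3 is a GTPase of ER tubules, and Sec62 belongs to the protein translocation machinery. Ccpg1 and Tex264 span the ER membrane, while Calcoco1 is a soluble protein that reaches the ER through VAP proteins. In muscle cells the ER is rebuilt into sarcoplasmic reticulum as myotubes form, and Fam134b is the member named for the knockout.

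Each value is a normalized count, that is the reads counted on a gene divided by a factor of its sample, and tests were run on log2(normalized count + 1). A gene was called where limma, fitted over all 10767 genes with 4 group means, gave a Benjamini-Hochberg adjusted p under 0.05. Between 1484750 and 3287461 reads lay on genes, and 3 reads, the smallest level taken as detected, equalled a normalized count of 2.49 to 5.99 (such floors cover counting error only). The shallowest libraries were Fam134b KO myotube replicates 2 and 4, with 1790524 and 1484750 reads, and these also lay farthest from their group mean over all genes. The 8 myotube markers fixed for this work, among them Myog and Acta1, summed to 810.1 to 1469 in WT myoblasts and 16752 to 25540 in WT myotubes. The sum was 9.18 to 19.1 in Fam134b KO myoblasts, where limma called 8 of 8 lower than in WT and Myog had no read in any sample, and 8925 to 12243 in Fam134b KO myotubes, where 4 of 8 were called lower. The sum over 6 markers of cycling cells was 3156 to 3875 in WT and 2516 to 4285 in Fam134b KO myoblasts, with 0 of 6 called lower by limma and 1 at an unadjusted p under 0.05. In myotubes it was 1730.5 to 2791 for WT against 725 to 1235 for Fam134b KO, with 5 of 6 called lower. The 4 myoblast markers summed to 552 to 811 (WT) and 161 to 221 (Fam134b KO) in myoblasts, and to 1474 to 2221 (WT) and 593 to 886 (Fam134b KO) in myotubes. Of these, 3 were tested and 2 were called lower in Fam134b KO cells at each stage. The other tested marker, Myf5, had means of 71.1 in WT and 114 in Fam134b KO myoblasts, which did not overlap (log2 fold change 0.68, limma adjusted p = 0.0955). The 8 markers of adipocytes, osteoblasts, leukocytes and endothelium summed to at most 2.59 in any sample, and all 8 were at 0 in Fam134b KO myotubes. The groups thus differ in muscle and cell cycle mRNAs as well as in Fam134b, and the part of these in the differences of the receptors was not tested. In bulk RNA, fewer cells of a type and less RNA per cell cannot be told apart. The labels call the samples biological replicates without naming separate cultures, so the p-values measure the spread between these samples.

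The sequences before the annotated starts of the receptors are shown because Tfeb and Tfe3, factors of lysosome and autophagy genes that are described as regulators of Fam134b, bind CACGTG boxes and in lysosomal genes often TCACGTGA. RefSeq (GRCm38.p6) gave 13 windows of 250 bases before a start for the 9 receptors, 4 of them for Fam134b and 2, which overlap, for Tex264. Shown are the first start of the targeted gene, the starts with a CACGTG box, and the starts of Atl3 and Calcoco1, the receptors that were higher in Fam134b KO myotubes. Each is written 5′ to 3′ on the strand of the gene, and capitals mark CACGTG or TCACGTGA.
Fam134b, start 1, chr15:25843048-25843297, plus strand: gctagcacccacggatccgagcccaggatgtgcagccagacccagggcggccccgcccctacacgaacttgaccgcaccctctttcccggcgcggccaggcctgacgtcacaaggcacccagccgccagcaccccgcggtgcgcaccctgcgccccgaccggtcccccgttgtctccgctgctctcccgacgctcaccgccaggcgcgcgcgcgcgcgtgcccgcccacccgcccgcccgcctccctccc
Fam134b, start 4, chr15:25942429-25942678, plus strand: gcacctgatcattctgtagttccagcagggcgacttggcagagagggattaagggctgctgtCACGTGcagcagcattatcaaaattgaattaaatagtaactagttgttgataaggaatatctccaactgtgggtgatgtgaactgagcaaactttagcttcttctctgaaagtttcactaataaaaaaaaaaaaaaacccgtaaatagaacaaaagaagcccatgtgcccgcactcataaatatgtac
Fam134a, chr1:75142536-75142785, plus strand: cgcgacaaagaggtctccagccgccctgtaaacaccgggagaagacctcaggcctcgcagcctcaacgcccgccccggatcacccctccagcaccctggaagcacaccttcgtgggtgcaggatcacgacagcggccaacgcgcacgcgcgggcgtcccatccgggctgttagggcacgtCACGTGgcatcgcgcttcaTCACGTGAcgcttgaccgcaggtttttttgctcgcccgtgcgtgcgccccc
Sec62, chr3:30792626-30792875, plus strand: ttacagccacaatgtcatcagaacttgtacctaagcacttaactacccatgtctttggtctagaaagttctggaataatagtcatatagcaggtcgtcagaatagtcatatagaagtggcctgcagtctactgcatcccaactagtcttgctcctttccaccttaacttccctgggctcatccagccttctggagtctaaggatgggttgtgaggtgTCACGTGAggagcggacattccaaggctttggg
Atl3, chr19:7494188-7494437, plus strand: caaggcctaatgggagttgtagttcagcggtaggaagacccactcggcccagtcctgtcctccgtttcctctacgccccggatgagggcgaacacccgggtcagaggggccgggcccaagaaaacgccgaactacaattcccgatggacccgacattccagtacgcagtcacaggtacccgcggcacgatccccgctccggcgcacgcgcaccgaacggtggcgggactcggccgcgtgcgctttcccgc
Calcoco1, chr15:102722179-102722428, minus strand: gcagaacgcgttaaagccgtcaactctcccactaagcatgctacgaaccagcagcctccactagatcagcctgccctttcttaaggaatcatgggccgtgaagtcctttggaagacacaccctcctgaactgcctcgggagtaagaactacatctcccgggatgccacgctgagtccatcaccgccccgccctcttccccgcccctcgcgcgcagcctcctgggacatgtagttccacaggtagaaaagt
Both strands read alike for these palindromic boxes, and each TCACGTGA holds a CACGTG. Fam134a had CACGTG at positions -70 and -50 from its start, the latter inside a TCACGTGA, and Sec62 had 1 TCACGTGA whose CACGTG lay at -32. Fam134b had CACGTG only before start 4, at -188. Over all 32851 windows of this length, 6.02% held CACGTG and 0.785% held TCACGTGA. The E-box CAGCTG, a sequence bound by myogenic factors, was looked for in the same way and lay in 13% of all windows, and among the receptors in those of Tex264. The windows of Atl3, Calcoco1, Ccpg1, Rtn3 and Fam134c held none of the 3 motifs. Placed by RefSeq, the Atl3 window lies inside the gene as GENCODE annotates it, from chr19:7494040. Bases before that GENCODE start were not searched. A match is a description of the letters and says nothing of binding.

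Fam134b (ENSMUSG00000022270, chr15:25843180-25973687, plus strand, GRCm38) was checked first, as the targeted gene. WT myoblast samples had normalized counts of 214, 251, 213 and 149.7, and Fam134b KO myoblasts 26.2, 24.9, 35.6 and 23.4. WT myotubes had 287, 146, 263 and 232, and Fam134b KO myotubes 31.9, 56.9, 50.4 and 28.0. The highest of the 8 Fam134b KO values was under the lowest of the 8 WT values, and 14 to 56 reads per Fam134b KO sample remained on the gene. The remaining mean was 13.3% of WT in myoblasts and 18.03% in myotubes, with log2 fold changes of -2.86 (standard error 0.26, 95% interval -3.39 to -2.33) and -2.46 (standard error 0.26, 95% interval -2.99 to -1.93). Limma called both, with adjusted p = 2.95e-08 in myoblasts and 9.85e-07 in myotubes. Reads were counted per gene, so transcripts from the annotated starts shown above are summed in these values.

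**Figure D1:**
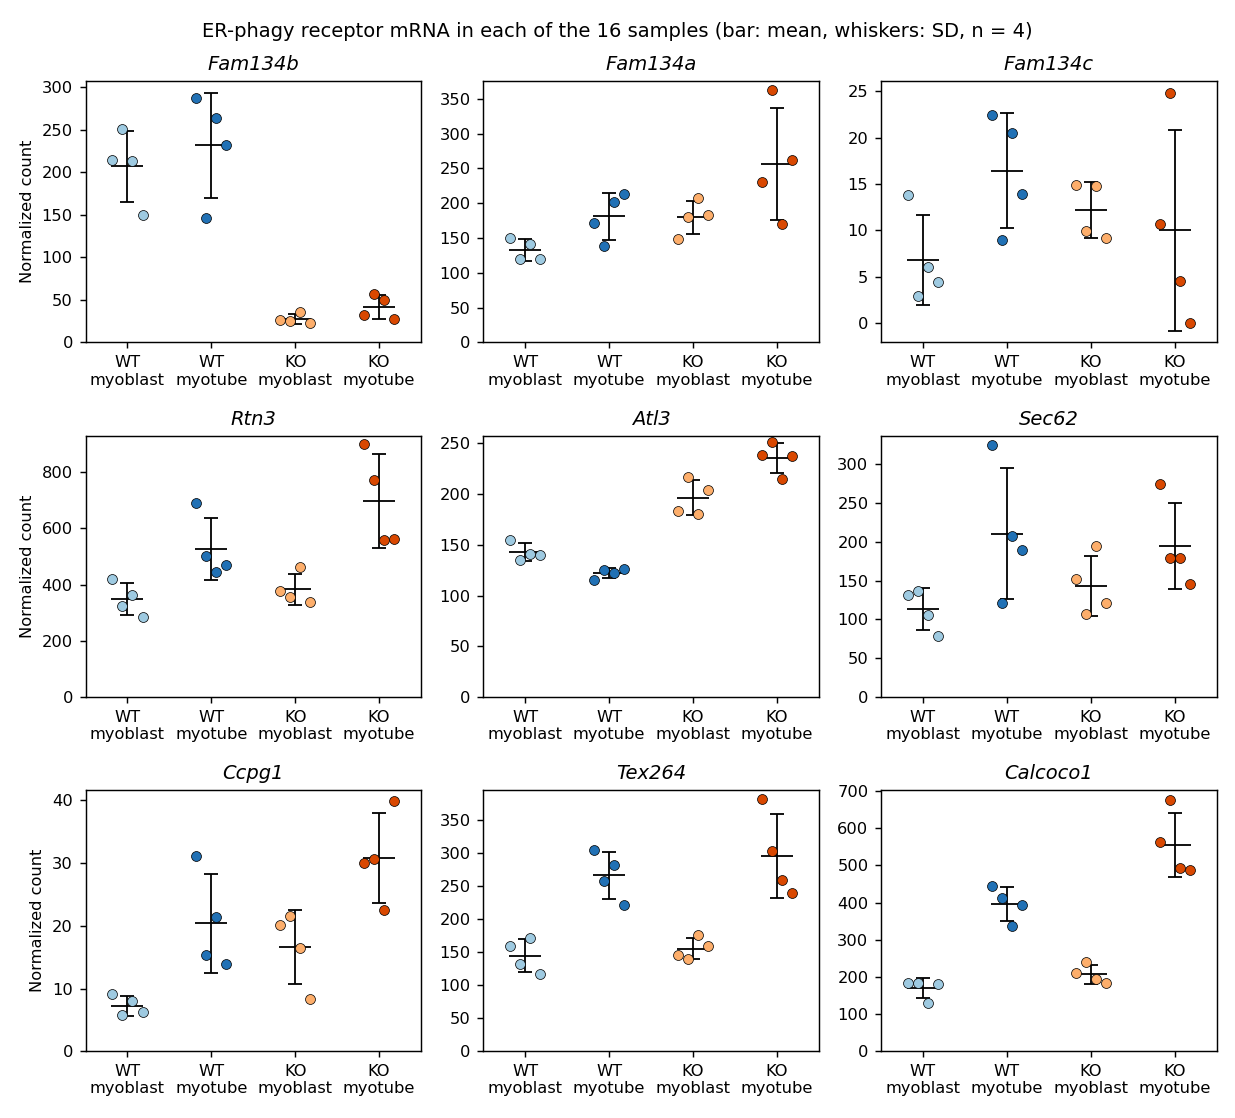
Normalized count (y axis, linear) of each ER-phagy receptor in the 4 groups of stage and genotype (x axis). Points are the 4 samples of a group, the bar is their mean and the whiskers the SD. Fam134b KO samples lie below all WT samples for Fam134b and above all WT samples of their stage for Atl3, while the stages do not overlap within either genotype for Rtn3, Tex264, Calcoco1 and Ccpg1.

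Of the 8 other receptors, Atl3 was the member called higher in Fam134b KO cells at both stages. The methods describe a knockout line and name no further ones, so differences between lines and loss of Fam134b cannot be told apart. In myoblasts, 2 of the 8 were called, Atl3 and Ccpg1, both higher, where 15.8% of all genes tested were called, 7.26% higher and 8.5% lower. In myotubes, 2 of the 8 were called, Atl3 and Calcoco1, again both higher, where 23.4% of all genes were called, 9.74% higher and 13.7% lower. The log2 fold changes of all 8 were above 0 in myoblasts, with a median of 0.38 against -0.01 over all genes. In myotubes 6 of the 8 were above 0, with a median of 0.43 against -0.07 over all genes. Of the 10767 genes tested, 5247 were above 0 in myoblasts and 4839 in myotubes. All receptors were read in the same samples, so their signs are not independent. Groups did not overlap for 1 of the 8 in myoblasts, Atl3, beside 26.8% of all genes, and for 2 of the 8 in myotubes, Atl3 and Calcoco1, beside 19.4% of all genes.

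Atl3 (ENSMUSG00000024759, chr19:7494040-7539674, plus strand), an atlastin that fuses ER tubules and binds Gabarap proteins, had the narrowest spread. WT myoblasts had 155, 135, 141 and 139.9 normalized counts, and Fam134b KO myoblasts 184, 217, 180.4 and 204. WT myotubes had 115, 125, 123 and 126, and Fam134b KO myotubes 238, 251, 215 and 238. All 8 Fam134b KO samples lay above all 8 WT samples. The shares of all genes separated in this way, or called higher at both stages, were not counted. The group means were ordered as WT myotubes (122 ± 5.03, SD, n = 4), WT myoblasts (143 ± 8.58), Fam134b KO myoblasts (196 ± 17.2) and Fam134b KO myotubes (235 ± 15.0). Fam134b KO exceeded WT by 0.45 on the log2 scale in myoblasts, a 1.37-fold difference (standard error 0.14, limma adjusted p = 0.0292), and by 0.94 in myotubes, a 1.92-fold difference (standard error 0.14, limma adjusted p = 5.87e-05). The myotube call held under every alternative tried, with log2 fold changes of 0.88 to 0.98. The myoblast call was lost when any of 5 single samples was left out, Fam134b KO replicate 2 or 4 or WT replicate 2, 3 or 4. In those 5 fits the limma adjusted p was up to 0.0809, with log2 fold changes of 0.41 to 0.45. The genotype difference was larger in myotubes by 0.49 (standard error 0.20, 95% interval 0.07 to 0.90), and this interaction had an unadjusted p of 0.0230 and an adjusted p of 0.199 by limma.

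Calcoco1 (ENSMUSG00000023055, chr15:102706777-102722178, minus strand), the soluble receptor recruited through Vapa and Vapb, was called higher in Fam134b KO myotubes. WT myotubes had 444, 412, 336 and 392 normalized counts, and Fam134b KO myotubes 562, 676, 494 and 488. The highest WT myotube sample lay below the lowest Fam134b KO myotube sample, and the difference was 0.48 on the log2 scale (standard error 0.16, 95% interval 0.14 to 0.82, limma adjusted p = 0.0374). The call was lost without Fam134b KO myotube replicate 1 or 2 or WT myotube replicate 3 or 4 (adjusted p 0.0655, 0.106, 0.123 and 0.0782), and without the 2 shallowest libraries (log2 fold change 0.42, adjusted p = 0.130 by limma). In myoblasts the WT values were 184, 185, 130.1 and 181 and the Fam134b KO values 210.0, 242, 194 and 184, which overlapped. That difference was 0.29 (95% interval -0.05 to 0.63, limma adjusted p = 0.261), and the interaction was 0.19 (95% interval -0.29 to 0.67, adjusted p = 0.729).

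Ccpg1 (ENSMUSG00000034563, chr9:72985429-73016340, plus strand), a receptor induced by the unfolded protein response that also binds Rb1cc1 of the Ulk complex, rested on 6 to 36 reads per sample. WT myoblasts had 9.23, 5.79, 8.01 and 6.24 normalized counts, and Fam134b KO myoblasts 20.1, 21.6, 16.5 and 8.34. The lowest Fam134b KO myoblast sample lay among the WT samples and the other 3 above them. The log2 fold change was 1.03 (standard error 0.35, limma adjusted p = 0.0481), and this call was lost in 11 of 18 alternatives. Leaving out Fam134b KO myoblast replicate 1, 2 or 3, or any single WT myoblast sample, gave adjusted p of 0.0557 to 0.142, and limma voom on the reads gave 0.0925. WT myotubes had 31.1, 15.3, 21.4 and 13.9 and Fam134b KO myotubes 30.01, 30.6, 22.5 and 40.0, a difference of 0.61 (95% interval -0.11 to 1.33, adjusted p = 0.217). Pigb, on the opposite strand, and Gm44503, on the same strand, share 55.8% of the exonic bases of Ccpg1, and whether the counting used strand is not given in the sources used here, so its reads cannot be told apart from theirs with certainty.

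**Figure D2:**
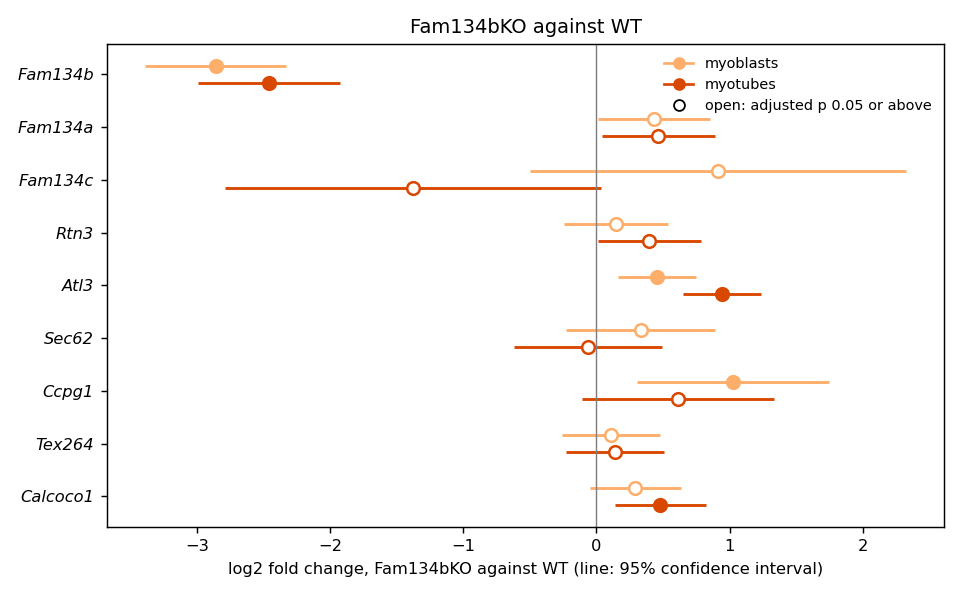
Log2 fold change of Fam134b KO against WT (x axis) for each receptor (y axis) in myoblasts and myotubes. Points are limma estimates from 4 against 4 samples, lines their 95% intervals, and filled points have an adjusted p under 0.05: Fam134b lies at -2.86 and -2.46, Atl3 is filled at 0.45 and 0.94, Ccpg1 is filled in myoblasts and Calcoco1 in myotubes.

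The paralogs of Fam134b were not called in either comparison of genotypes. Fam134a (ENSMUSG00000049339, chr1:75142778-75147913, plus strand) had 149, 121, 142 and 119 normalized counts in WT myoblasts and 149, 181, 207 and 183 in Fam134b KO myoblasts. The myotube values were 172, 139, 202 and 213 for WT, and 230.4, 363, 170.0 and 262 for Fam134b KO. The groups overlapped at both stages, with Fam134b KO higher by 0.43 in myoblasts (95% interval 0.01 to 0.86, limma adjusted p = 0.173) and by 0.46 in myotubes (95% interval 0.04 to 0.89, limma adjusted p = 0.106). Without Fam134b KO myotube replicate 3 the myotube difference was 0.64 with an adjusted p of 0.0246, and without the 2 shallowest libraries it was 0.15 with an adjusted p of 0.673. Fam134c (ENSMUSG00000017802, chr11:101096322-101119893, minus strand) rested on 3 to 26 reads in 15 samples and on none in Fam134b KO myotube replicate 4. Its values were 13.8, 2.89, 6.004 and 4.46 in WT myoblasts, 14.9, 9.96, 14.7 and 9.18 in Fam134b KO myoblasts, 22.4, 8.996, 20.4 and 13.9 in WT myotubes and 10.6, 24.8, 4.50 and 0 in Fam134b KO myotubes. The groups overlapped, and the intervals of the difference were wide, -0.50 to 2.33 in myoblasts and -2.79 to 0.04 in myotubes. Without Fam134b KO myotube replicate 2 the myotube value was -2.05 with an adjusted p of 0.020 by limma.

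Rtn3, Sec62 and Tex264 had overlapping WT and Fam134b KO samples at each stage and were not called. For Rtn3 (ENSMUSG00000024758, chr19:7425901-7483281, minus strand), a reticulon of ER tubules, the difference was 0.15 in myoblasts (95% interval -0.24 to 0.54) and 0.40 in myotubes (95% interval 0.01 to 0.79, limma adjusted p = 0.131). The latter had an adjusted p of 0.0453 without WT myotube replicate 1. Rtn3 lies close to Atl3 on chromosome 19, on the opposite strand, and the groups did not overlap for Atl3 alone of the pair. For Sec62 (ENSMUSG00000027706, chr3:30792875-30821263, plus strand), a translocon subunit with a role in trimming the ER after stress, it was 0.33 (95% interval -0.23 to 0.89) and -0.06 (95% interval -0.62 to 0.50). For Tex264 (ENSMUSG00000040813, chr9:106658746-106685927, minus strand), a single-pass membrane receptor, it was 0.11 (95% interval -0.26 to 0.48) and 0.14 (95% interval -0.23 to 0.50), so a rise above 1.5-fold lay outside both intervals. Sec62 shares 11.7% of its exonic bases with a gene annotated on the opposite strand.

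All receptors called between stages were higher in myotubes. In WT cells 5 of the 9 receptors rose from myoblasts to myotubes, Rtn3, Sec62, Ccpg1, Tex264 and Calcoco1, and 0 fell by limma, where 23% of all genes were called, 13.8% higher and 9.16% lower. In Fam134b KO cells 3 of the 9 rose, Rtn3, Tex264 and Calcoco1, and 0 fell, where 33.4% of all genes were called, 17.3% higher and 16.1% lower. Counting instead every receptor whose unadjusted p was under 0.05 gave 6 in each genotype, beside 35.4% of all genes in WT and 43.7% in Fam134b KO cells. The share in Fam134b KO cells, 3 of 9, was near that of all genes. WT myoblasts and WT myotubes did not overlap for 5 receptors, beside 28% of all genes, and the Fam134b KO stages did not overlap for 4, beside 27.4% of all genes. The 4 comparisons share groups, so their counts are not independent.

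Calcoco1 had the largest rise among the called receptors in Fam134b KO cells. Its mean went from 169.9 ± 26.6 to 396 ± 45.1 in WT (log2 fold change 1.22, standard error 0.16, limma adjusted p = 1.42e-05) and from 207 ± 25.3 to 555 ± 87.3 in Fam134b KO (1.41, standard error 0.16, adjusted p = 1.03e-06). Every myotube sample lay above every myoblast sample of its genotype. In order of level, the 2 myoblast groups were lowest and overlapped, WT myotubes followed, and Fam134b KO myotubes were highest.

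Tex264 had 159.6, 132, 171 and 118 normalized counts in WT myoblasts and 305, 258, 282 and 222 in WT myotubes. Fam134b KO myoblasts had 146, 140.3, 176 and 160.2, and Fam134b KO myotubes 382, 304, 259 and 239.8. Myotubes lay above myoblasts in both genotypes without overlap, by 0.88 in WT and 0.91 in Fam134b KO (standard error 0.18 for each, limma adjusted p = 0.0011 and 0.000458). Rtn3 had 419.8, 324, 362 and 285 in WT myoblasts, 689.8, 503, 443 and 472 in WT myotubes, 377, 356, 463 and 339.5 in Fam134b KO myoblasts and 900.4, 773, 558 and 563 in Fam134b KO myotubes. Again the stages did not overlap within a genotype, and the rise was 0.59 in WT (standard error 0.19, limma adjusted p = 0.0272) and 0.84 in Fam134b KO (standard error 0.19, limma adjusted p = 0.00159). The WT call was lost without WT myoblast replicate 2, 3 or 4 or WT myotube replicate 1, with adjusted p of 0.0508 to 0.112.

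Ccpg1 rose by 1.32 in WT cells (standard error 0.35, limma adjusted p = 0.00926) and had a log2 fold change of 0.90 in Fam134b KO cells (adjusted p = 0.0504). The latter was called in 4 alternatives, with limma voom (adjusted p = 0.0478), with a pseudocount of 5 (0.0359), without Fam134b KO myoblast replicate 2 (0.0385) and without Fam134b KO myotube replicate 3 (0.0387). Its stages did not overlap in either genotype. Sec62 had 131, 137, 106 and 78.4 in WT myoblasts against 325, 121, 207 and 189 in WT myotubes, where the lowest myotube sample lay among the myoblast samples. It rose by 0.83 (standard error 0.27, limma adjusted p = 0.0295), and without WT myotube replicate 1 the value was 0.60 with an adjusted p of 0.136. The call was also lost without WT myoblast replicate 3 or 4 or WT myotube replicate 3 or 4, with adjusted p of 0.0554 to 0.114. Sec62 had 151, 106, 194 and 121 in Fam134b KO myoblasts and 275, 179, 179 and 146 in Fam134b KO myotubes, an overlapping difference of 0.44 (95% interval -0.12 to 1.00, limma adjusted p = 0.217).

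The receptors without a differentiation call were Fam134a, Fam134b, Fam134c and Atl3. Fam134a differed by 0.43 in WT (95% interval 0.01 to 0.86) and 0.47 in Fam134b KO (95% interval 0.04 to 0.89), with adjusted p of 0.132 and 0.0833 by limma. Fam134b differed by 0.14 in WT (95% interval -0.39 to 0.67) and 0.54 in Fam134b KO (95% interval 0.01 to 1.08, limma adjusted p = 0.106). These values sum the transcripts of the gene, so its isoforms are not separated. Fam134c, on 3 to 26 reads in WT samples, differed by 1.27 there (95% interval -0.14 to 2.68, limma adjusted p = 0.188), and was called without the 2 shallowest libraries, which are in another group but share the estimate of spread (adjusted p = 0.0243). It was also called with array weights (1.16, limma adjusted p = 0.0278) and with the 8 samples alone (1.27, limma adjusted p = 0.0307). In Fam134b KO cells Fam134c differed by -1.02 (95% interval -2.43 to 0.39, limma adjusted p = 0.260). For Atl3 all WT myotube samples lay below all WT myoblast samples (p = 0.0286 by an exact two-sided permutation test, which is the lowest value that groups of 4 allow), yet the log2 fold change of -0.22 was not called by limma (95% interval -0.51 to 0.07, adjusted p = 0.267). In Fam134b KO cells Atl3 differed by 0.26 in the other direction (95% interval -0.03 to 0.55, limma adjusted p = 0.155).

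**Figure D3:**
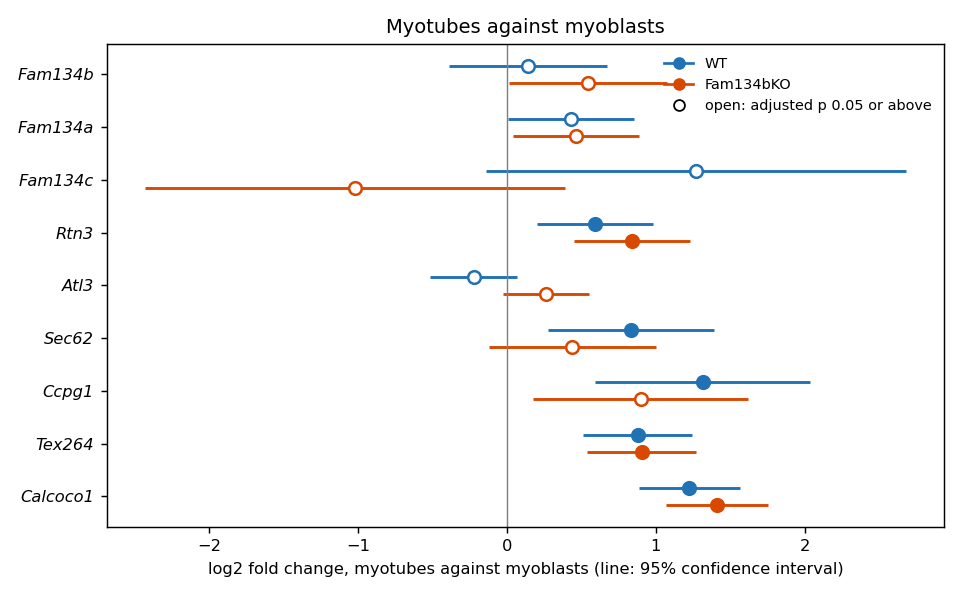
Log2 fold change of myotubes against myoblasts (x axis) for each receptor (y axis) in WT and Fam134b KO cells. Points are limma estimates from 4 against 4 samples, lines their 95% intervals, and filled points have an adjusted p under 0.05: Rtn3, Tex264 and Calcoco1 are filled in both genotypes, Sec62 and Ccpg1 in WT, and Atl3 lies at -0.22 in WT and 0.26 in Fam134b KO.

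The interaction of genotype and differentiation was called for none of the 9 receptors by limma, against 3.45% of all genes, and 2 receptors, Atl3 and Fam134c, had an unadjusted p under 0.05, beside 17.4% of all genes. For Fam134c the interaction was -2.29 (95% interval -4.29 to -0.29, adjusted p = 0.214), and it was called without Fam134b KO myotube replicate 2 (-2.96, adjusted p = 0.0461) and with sample weights (-2.29, adjusted p = 0.0336). The receptors called in WT and not in Fam134b KO cells, Sec62 and Ccpg1, had interactions of -0.40 (95% interval -1.19 to 0.39) and -0.42 (95% interval -1.44 to 0.60), so a difference between the genotypes was not shown for them. Fam134b, Rtn3, Fam134a and Tex264 had interactions of 0.40, 0.25, 0.03 and 0.03 (limma adjusted p = 0.612, 0.674, 0.974 and 0.974).

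Across the 16 samples, the levels of some receptors followed each other. The Pearson correlation of log2 values was 0.92 between Rtn3 and Tex264, 0.87 between Rtn3 and Calcoco1 and 0.81 between Ccpg1 and Calcoco1, all genes that were higher in myotubes. Fam134b and Atl3 had -0.87, the lowest value of any pair with Fam134b. Both genes were called between genotypes at both stages, in opposite directions. Their negative correlation therefore restates the genotype difference and is no separate result. Of all genes tested, those most like Fam134b were Ramp1 (0.98), Fam178a (0.98) and 2210016F16Rik (0.97). For Atl3 they were Mgat4b (0.97), Sept6 (0.95) and Kitl (0.94), for Calcoco1 Cpq (0.96), Ubr3 (0.96) and Car6 (0.95), and for Ccpg1 Tsc22d3 (0.92), Matn2 (0.91) and Itga11 (0.91). These are descriptions over samples that share libraries and fall into 4 groups, and carry no test.

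Partners of the receptors were read from lists fixed for this work. Among 10 other receptors, adaptors and direct partners, 9 were tested and 2 were called in each comparison of genotypes, 1 higher and 1 lower, beside 15.8% of all genes in myoblasts and 23.4% in myotubes. Sqstm1, the p62 adaptor that joins ubiquitinated cargo to Atg8 proteins, had means of 1771 ± 121 in WT and 2564 ± 28.7 in Fam134b KO myoblasts, and of 1331 ± 131 in WT and 2420 ± 537 in Fam134b KO myotubes. It was higher by 0.54 in myoblasts (standard error 0.16, limma adjusted p = 0.0270) and by 0.84 in myotubes (standard error 0.16, limma adjusted p = 0.000796). Arl6ip1, an ER-shaping protein that binds Fam134b, was lower by a log2 fold change of -0.58 in myoblasts (standard error 0.18, limma adjusted p = 0.0271) and -0.69 in myotubes (standard error 0.18, limma adjusted p = 0.00696). Vapa and Vapb, the partners of Calcoco1, and Atl2, a paralog of Atl3, were not called. The myoblast calls of Sqstm1 and Arl6ip1 were lost when any of 6 and any of 4 single samples, respectively, was left out, and the myotube calls held under every alternative tried.

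Of the Atg8 family and Rb1cc1, 6 genes in all, none was called between Fam134b KO and WT myoblasts by limma, with 3 at an unadjusted p under 0.05, beside 27.4% of all genes. In myotubes 3 were called higher, beside 9.74% of all genes, Map1lc3b by 0.69, Gabarap by 0.78 and Gabarapl1 by 0.86 (limma adjusted p = 0.0363, 0.00445 and 0.00579). Map1lc3a, Gabarapl2 and Rb1cc1 had differences of -0.12, -0.01 and 0.14 there and were not called. Without the 2 shallowest Fam134b KO myotube libraries the differences were 0.30 for Map1lc3b (adjusted p = 0.410), 0.53 for Gabarap (adjusted p = 0.0491) and 0.60 for Gabarapl1 (adjusted p = 0.068). Map1lc3b was also not called with array weights, without a filter, with the 8 samples alone, or when any of 6 single myotube samples was left out, with log2 fold changes of 0.48 to 0.75. The UFM1 conjugation system, which modifies ER proteins on the way to ER-phagy, had 0 of 7 genes called in either comparison of genotypes by limma, with 0 in myoblasts and 1 in myotubes at an unadjusted p under 0.05, beside 27.4% and 35.7% of all genes. That 1 gene was Ufsp1, named after its values were seen, at -1.03 (adjusted p = 0.0572).

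**Figure D4:**
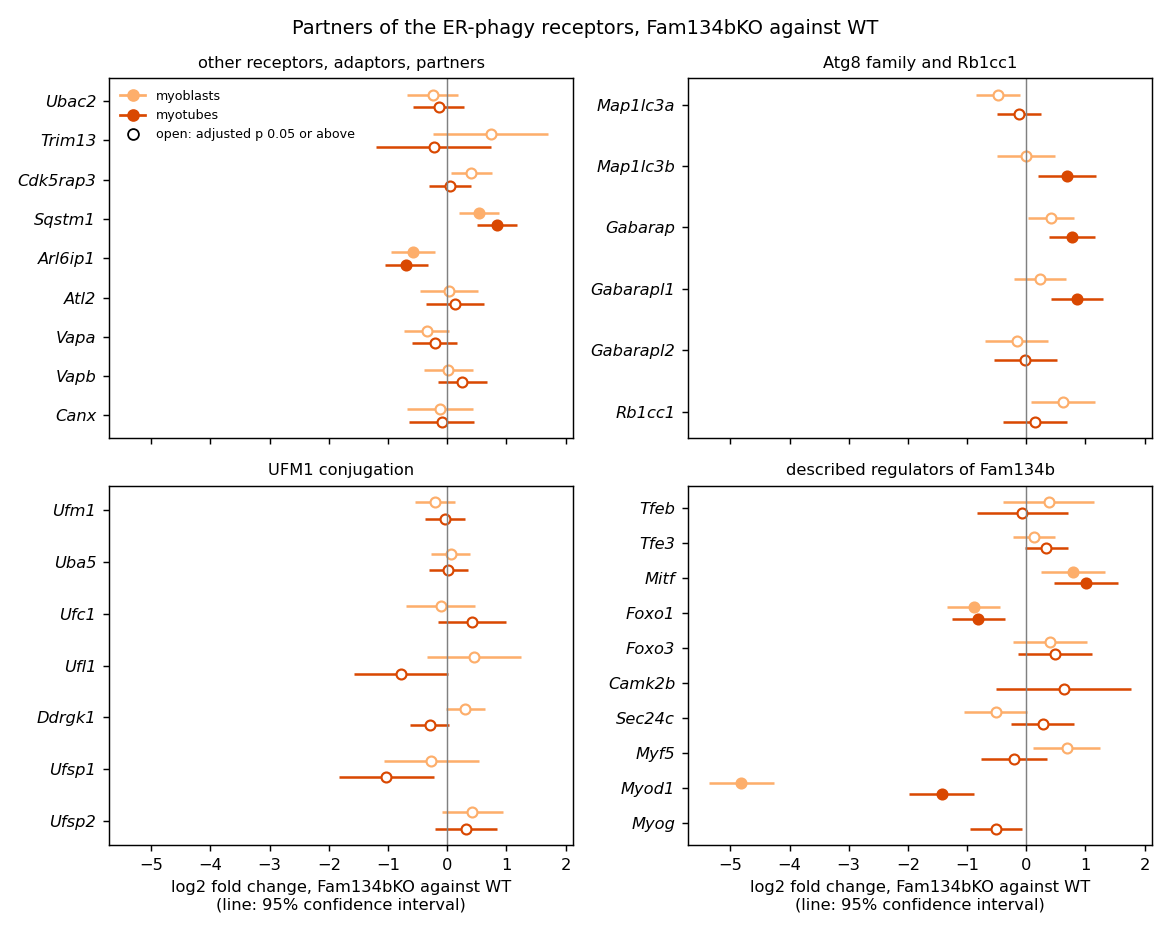
Log2 fold change of Fam134b KO against WT (x axis) in myoblasts and myotubes for genes of 4 partner lists (y axes). Points are limma estimates from 4 against 4 samples, lines their 95% intervals, and filled points have an adjusted p under 0.05. Myog and Camk2b have no myoblast point, as a group there held at most 3 reads in every sample; Sqstm1 and Arl6ip1 are filled at both stages on opposite sides of 0, and the 3 filled Atg8 genes lie between 0.69 and 0.86 in myotubes.

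Of 12 genes described as regulators of Fam134b, 11 were tested, of which 1 was called higher and 3 lower in Fam134b KO myoblasts, and 1 higher and 2 lower in Fam134b KO myotubes. Of all genes tested, 7.26% were called higher and 8.5% lower in myoblasts, and 9.74% higher and 13.7% lower in myotubes. Mitf, a factor of the Tfeb family, was higher in Fam134b KO by 0.79 in myoblasts (limma adjusted p = 0.0439) and by 1.01 in myotubes (limma adjusted p = 0.0079), on 18 to 68 reads per sample. Its myoblast call was lost when any of 7 single samples was left out, and its myotube call without the 2 shallowest libraries (0.74, adjusted p = 0.0853) and with array weights (0.81, adjusted p = 0.0523). Tfeb and Tfe3 were not called at either stage. Myod1, the myogenic factor, was lower at both stages, with log2 fold changes of -4.81 in myoblasts and -1.43 in myotubes (limma adjusted p = 9.54e-12 and 0.000497), and Myog, which had a mean of 114 in WT myoblasts, had no read in the 4 Fam134b KO myoblast samples. Foxo1, named after its values were seen, was lower by log2 fold changes of -0.88 and -0.81 (limma adjusted p = 0.00584 and 0.00903).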

How the data were processed

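Each of the 16 C2C12 samples gave 125 ng of total RNA to a commercial digital mRNA-seq service, and the libraries were sequenced single-end over 100 cycles. According to the methods and labels, the authors trimmed reads and removed ribosomal RNA and phiX with bbduk, aligned the rest to mm10 with STAR 2.6.0a, and obtained gene counts through HTSeq-counts. The deposited values are log2(normalized count + 1), where the authors divided the counts of each sample by 1 factor. This was read from the values: 100% of the 208843 values above 0 are, after undoing the log2, whole multiples of 1 step per sample within 0.01. The reads so recovered give depth and floors, and they entered limma voom as an alternative. The tool for normalization is not given in the sources used here; median-ratio factors computed on the values were all 1.02.

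Samples were grouped by their titles. A gene entered the tests where 4 or more samples had a normalized count of 10 or above. A single model of the 4 group means, free of covariates, was fitted by limma 3.58.1 (R 4.3.3; lmFit, contrasts.fit, eBayes with trend), and p-values were adjusted over the 10767 genes by Benjamini-Hochberg. The design had assumed linear normalized counts, and since the deposited values already are on the log2 scale they were fitted as they are. Separation of 4 against 4 samples was checked with a two-sided exact permutation test, whose smallest p is 0.0286. The procedure was also run on simulated data, and the outcome of that run is not reported here. The study's threshold was 0.05.

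The receptors and the partner lists were chosen with earlier results of these data known. All receptors are named in each comparison. From each partner list, up to 3 called genes with the largest absolute log2 fold change between genotypes are named, and others with the remark that their values had been seen. Vapa, Vapb, Atl2, Tfeb, Tfe3 and the uncalled Atg8 genes were likewise named after that. The text also gives the 3 genes most correlated with each receptor called between genotypes. Coordinates and overlaps come from GENCODE M21 (GRCm38), joined by Ensembl identifier, and sequences from RefSeq. Same-numbered samples of different groups deviated together by a mean correlation of 0.033, with 10 of 24 pairs over 0.1. For samples of different number the mean was -0.011, with 17 of 72 pairs over 0.1. The main fit did not pair samples by number, and a fit with the replicate number as a block was run as an alternative. The settings varied were the pseudocount (0.5 or 5), the filter (none, or a minimum of 50), the scaling (total or quantile; median-ratio factors were equal and could not change a value), and further fits with a replicate block, the 8 samples compared alone, array weights (1 weight per sample), limma voom, and each sample left out in turn. Leaving out the 2 shallowest libraries, and applying these settings to the partner genes, was added after seeing the data. Count models were not run, and only limma voom was fitted to the recovered reads. Of the listed regulators, 1 gene enters the counts but is not reported here. Proteomic data were not analysed here.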

Additional observations from a re-analysis of the deposited data

Results flagged for a closer look

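Calcoco1 in WT myoblasts had 1 sample far from the other 3. WT myoblast replicate 3 had a normalized count of 130.1 against 181 to 185, and its gap to the next sample was 0.934 of the range of the group on the log2 scale. This was 1 of 36 groups of 4 samples examined, where chance gives about 1 in 20. Without this sample the log2 fold change of Calcoco1 between Fam134b KO and WT myoblasts was 0.17 and its rise in WT differentiation 1.10, which was still called by limma.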

How the results depend on the processing

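Of 908 recomputed log2 fold changes of receptors, 857 stayed on the same side of the threshold, 32 lost a call and 19 gained one; the cause was not tested where a call changed. The sign turned in 22, all of values that were not called in either fit, in Sec62 between genotypes in myotubes, Fam134b in WT differentiation and the interactions of Fam134a and Tex264. Of 323 values of partner genes, 287 stayed on their side, 33 lost a call and 3 gained one, and the sign of Map1lc3b in myoblasts, not called, turned in 7. These counts leave out median-ratio scaling, whose equal factors could only repeat the main values. Fam134b at both stages, Atl3 in myotubes, and the differentiation calls of Tex264 and Calcoco1 held under every alternative run. So did the calls of Rtn3 in Fam134b KO differentiation and, wherever it was tested, of Ccpg1 in WT differentiation. Leaving out 1 sample gave log2 fold changes of 0.41 to 0.49 for Atl3 in myoblasts, 0.88 to 1.31 for Ccpg1 in myoblasts and 0.38 to 0.54 for Calcoco1 in myotubes. Ccpg1 in myoblasts was also not called with limma voom (1.07), without a filter (1.03) or with a pseudocount of 5 (0.77). Calcoco1 in myotubes was not called with array weights (0.46), with the 8 samples alone (0.48) or without the 2 shallowest libraries (0.42). With array weights 5 receptors were called between genotypes in myoblasts, Sec62 (0.46) and Calcoco1 (0.32) among them, and 1 in the interaction, Fam134c, and 3773, 4683 and 1221 genes were called in the myoblast, WT differentiation and interaction comparisons, beside 1697, 2474 and 371. With the 8 samples alone 2656 genes were called in myoblasts and 1565 in myotubes, beside 2521. Leaving out 1 sample of the groups compared gave 1 to 2 receptors called between genotypes in myoblasts, 3 to 5 in WT differentiation (3 without WT myoblast replicate 3 or 4 or WT myotube replicate 1), 3 to 5 in Fam134b KO differentiation (5 without Fam134b KO myotube replicate 3, when Fam134a and Ccpg1 were added) and 0 to 1 in the interaction. It gave 1564 to 2949 genes in WT differentiation, the lowest without WT myotube replicate 1, and 231 to 521 in the interaction. The receptor counts include Fam134b. No other receptor was called between genotypes in myoblasts without Fam134b KO myoblast replicate 2 or WT myoblast replicate 2, 3 or 4. Fam134a gained a call in myoblasts with the 8 samples alone (0.43), and in WT differentiation with array weights (0.54). Fam134b in Fam134b KO differentiation gained a call without Fam134b KO myotube replicate 4 (0.71), as did Fam134c without Fam134b KO myotube replicate 2 there (-1.69) and between genotypes in myotubes (-2.05). Quantile normalization moved the share of upward calls in WT differentiation from 60.1% to 49.7%, with the same count of 5 receptors higher; no scaling moved the median of all genes by over 0.1. A fit with the replicate number as a block ended the call of Ccpg1 in myoblasts (1.03, adjusted p = 0.0519 by limma) and of no other receptor, ended that of Mitf in myoblasts (0.79, adjusted p = 0.0649), and called 1678, 2513, 2495, 3628 and 358 genes in the 5 comparisons, beside 1697, 2521, 2474, 3591 and 371. Depth limits Fam134c and Ccpg1, which had at most 36 reads in any sample.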

Other observations

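Some partners of the receptors changed with differentiation. All genes in this paragraph were named after their values were seen. Of the 9 other receptors and partners tested, Ubac2, an ER-phagy receptor of ER sheets, and Canx, the calnexin chaperone that works with Fam134b on procollagen, rose in both genotypes and were the 2 genes called in WT cells. Ubac2 rose by 0.65 in WT (limma adjusted p = 0.0260) and 0.76 in Fam134b KO cells (limma adjusted p = 0.00736), and Canx by 1.01 and 1.04 (limma adjusted p = 0.0091 and 0.00483). Arl6ip1 fell by 0.55 on the log2 scale in Fam134b KO cells (limma adjusted p = 0.0198). Of the 6 genes listed for the Atg8 family, Rb1cc1 included, Map1lc3a rose by 0.65 in WT and 1.00 in Fam134b KO cells (limma adjusted p = 0.0112 and 0.000176), and Rb1cc1 fell by 0.74 in Fam134b KO cells (limma adjusted p = 0.0327). Of 7 genes of UFM1 conjugation, Ddrgk1 rose by 0.51 and Ufc1 fell by 0.82 in WT cells (limma adjusted p = 0.0227 and 0.0379), and 0 were called in Fam134b KO cells, with 2 at an unadjusted p under 0.05, beside 43.7% of all genes. These counts stand beside 23% of all genes called in WT and 33.4% in Fam134b KO cells.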
